A study of Mus musculus with 6 samples.

Results

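Lung tumour cells that kept high surfactant protein C (Sftpc) transcript but carried little lysozyme 2 (Lyz2) transcript and no more than 1 transcript copy of Dlk1 made up 3126 of 16017 sorted cells in a droplet-based single-cell RNA-seq matrix, or 19.5% (95% interval 18.9 to 20.1). They were chosen by fixed limits on measured counts of unique molecular identifiers (UMIs, each standing for 1 captured transcript). A cell had to contain at least 500 detected genes, at most 20% mitochondrially encoded UMIs and at least 1 UMI of TdTomato, the red fluorescent reporter of recombined tumour cells. It further had fewer than 2 Dlk1 UMIs and, per 10000 of its UMIs, at least 500 of Sftpc, under 100 of Lyz2, under 2 of Hopx and under 50 of Krt8 and Krt18 together. The first 3 limits left 12092 TdTomato cells, of which the Lyz2-reduced cells were 25.9% (25.1 to 26.6), and the other 8966 are called the remaining TdTomato cells here. Because these genes selected the cells, their levels are a description and none is a result.

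All 6 mice carried the LSL-tdTomato reporter at Rosa26 and Lkb1XTR/XTR, an allele of Lkb1 (gene symbol Stk11) in which Cre inverts a GFP gene trap that truncates the transcript, and tumours were started by lentiviral Cre delivered into the trachea. After 20 weeks, 3 mice labelled restored, all with the FLPo-ERT2 recombinase, received tamoxifen for 2 weeks, which deletes the trap. The 3 mice labelled non-restored comprised 1 female with FLPo-ERT2 on vehicle (corn oil) and 2 males without the recombinase, 1 on vehicle and 1 on tamoxifen, while the restored mice were 2 males and 1 female. Cells positive for CD45, CD31, F4/80 or Ter119 had been sorted out. The matrix analysed here joins the mice without naming the mouse of a cell, so it counts as 1 sample, the restored and non-restored mice were not compared, and no test was run on any difference below. Intervals are exact 95% intervals (Poisson for levels, conditional binomial for ratios, Clopper-Pearson for shares) and cover counting error only, not the spread between mice. Where no UMI was seen, the share that this allows is 3 counts of the total, and the upper Clopper-Pearson limit is somewhat higher.

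Alveolar type II (ATII) cells secrete surfactant, the mixture of lipids and proteins that keeps air spaces open, and act as progenitors of the flat alveolar type I (ATI) cells. Their identity is read from surfactant proteins, from the lamellar-body lipid pump Abca3 and from antimicrobial products such as lysozyme, and it is known to depend on the factors NKX2-1 and C/EBPα. In lung adenocarcinoma, tumour cells retain this programme to different degrees, and keratin-rich transitional and ATI-like states are found beside it.

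The Lyz2-reduced cells held 62949300 UMIs in all, with a median of 18175 UMIs and 3992 genes a cell, against 20029 UMIs and 4243 genes in the remaining TdTomato cells. Their median mitochondrial share was 4.48%, against 3.50%. Scrublet scores were taken over all cells with at least 500 genes. By these, 261 Lyz2-reduced cells (8.35%) fell in the 6% most like simulated doublets, against 5.89% of the remaining cells. The shares were 4.81% of the Lyz2-high and 7.40% of the Dlk1 cells described below. The part of doublet-like cells in the results was not tested beyond leaving such cells out. Markers of residual stromal and blood cells were measured in the same sets. The 11 myeloid markers other than Lyz2 summed to 4.61 CPM (UMIs of a gene per 1000000 UMIs), with 10 of 11 under 1 CPM, the 8 endothelial markers to 20.1 CPM and the 8 fibroblast markers to 74.9 CPM, against 74.8, 72.0 and 1067 CPM in the remaining cells. The fibroblast sum was 23.3 CPM in the Lyz2-high and 17.3 CPM in the Dlk1 cells, and 410 CPM in a sub-cluster of 616 Lyz2-reduced cells, all described below. The 16 ATII markers outside the rule summed to 53889 CPM, against 68069 in the Lyz2-high cells described below. The 1216 TdTomato cells with low Sftpc, and Hopx and keratins under their limits, stood at 17387 CPM, with 12053.5 CPM of the 8 fibroblast markers. The endothelial, fibroblast and myeloid cells left in the matrix, chosen with Sftpc under 500 per 10000, stood at 920, 782 and 5677 CPM. Low Sftpc chose these sets, so their contrast with the Lyz2-reduced cells is partly fixed.

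The Lyz2 limit did not fall at a gap between cells. Within the selected cells, Lyz2 had a median of 25.4 UMIs per 10000, 257 cells had none, and 1156 had fewer than 10. The median was 18.7 in the remaining TdTomato cells and 191 in the Lyz2-high cells described below, so the name Lyz2-reduced refers to the latter. Between 90 and 110 the counts of cells were nearly flat across the limit, with 183 cells between 90 and 100 and 190 cells between 100 and 110 that met every other limit. The Lyz2-reduced cells are thus a range of the Lyz2 scale set by a limit. Whether they form a type of their own is not answered by Lyz2, the gene that chose them. The other limits were less crowded in Sftpc, with 71 cells just below 500 and 63 just above, and in keratins, with 19 cells on each side within 5 UMIs per 10000. Hopx had 550 cells between 1 and 2 and 246 between 2 and 3. For Dlk1, 2935 selected cells had 0 UMIs and 191 had 1, and 41 further cells were left out with exactly 2. In the 419 cells kept out by Dlk1 alone, the median was 20.0 Dlk1 UMIs and the highest was 446.

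**Figure D1:**
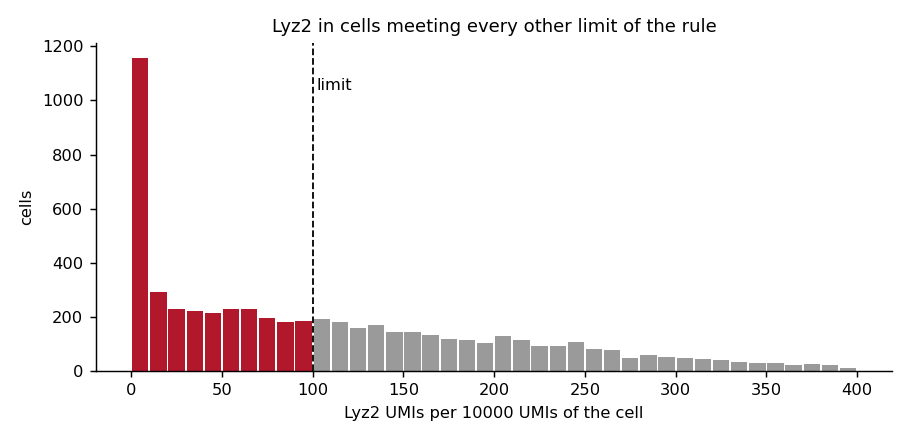
Number of cells (y axis) by Lyz2 UMIs per 10000 UMIs of the cell (x axis, bins of 10, shown up to 400) among cells that met every other limit, with the Lyz2-reduced cells in red and the limit of 100 as a dashed line. The first bin stands far above the rest, and the 183 cells just below the limit and the 190 just above it show no gap there.

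The remaining TdTomato cells were divided by the limit they missed. Cells that met every limit but Lyz2 (2722 cells, the Lyz2-high neighbours) and cells that met every limit but Dlk1 (419 cells, the Dlk1 neighbours) differ from the Lyz2-reduced cells by 1 limit each and served as the close comparisons. A further 707 cells missed both of these limits and no other. The rest were classed in order: 1182 had keratins at or over their limit, 2720 others had Hopx at or over its limit, and 1216 with neither had low Sftpc. Keratin and Hopx cells could have low Sftpc too, with median Sftpc of 39.7 and 530 per 10000. The Sftpc limit alone kept 8524 of the 12092 TdTomato cells. Median depth was 23450 UMIs in the Lyz2-high neighbours and 23422 in the Dlk1 neighbours. Lyz2 itself stood at 3440 CPM in the Lyz2-reduced cells and 21845 in the Lyz2-high neighbours, as the limit dictated. The Dlk1 neighbours, under the same Lyz2 limit, stood at 4985 CPM, with a median of 50.2 per 10000 against 25.4 in the Lyz2-reduced cells.

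The 4 genes proposed as markers of the cells were Phgr1, a small histidine- and glycine-rich protein best known from gut epithelium, Tgfbi, a secreted matrix protein induced by TGF-beta, Pmvk, the phosphomevalonate kinase of isoprenoid and cholesterol synthesis, and Sftpb, surfactant protein B. They had been picked on these cells, so their values are a description. Phgr1 (chr2:118772769-118778165, GRCm38) stood at 93.5 CPM (91.1 to 95.9), against 61.4 (60.3 to 62.5) in the remaining TdTomato cells, 50.3 (48.6 to 52.0) in the Lyz2-high neighbours and 97.6 (91.7 to 103.9) in the Dlk1 neighbours. The interval of the Dlk1 neighbours overlapped that of the Lyz2-reduced cells, and the low-Sftpc cells reached 99.1 CPM. Tgfbi (chr13:56609523-56639562) stood at 207 CPM, against 137 CPM in the remaining cells, 103 in the Lyz2-high and 246 in the Dlk1 neighbours, so the Lyz2-reduced cells were 2.00-fold (1.95 to 2.06) above the Lyz2-high neighbours and below the Dlk1 neighbours.

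Pmvk (chr3:89454541-89469013) gave the largest of the 4 ratios over the remaining cells, 1.66 (1.64 to 1.67), with 942 CPM against 568. It reached 636 CPM in the Lyz2-high neighbours and 1005 in the Dlk1 neighbours. Sftpb (chr6:72304610-72314371) stood at 12614 CPM in the Lyz2-reduced cells and at 9290, 11617 and 11890 CPM in the other 3 sets, a ratio of only 1.09 (1.08 to 1.09) over the Lyz2-high neighbours. All 4 were higher than in the remaining cells as a whole, but Phgr1, Tgfbi and Pmvk were not higher than in the cells that differed by Dlk1 only. With the Lyz2 limit at 50 the log2 ratios of Phgr1 and Pmvk over the Dlk1 neighbours were 0.12 and 0.06, and relative to the median gene that of Sftpb over the Lyz2-high neighbours was -0.08.

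**Figure D2:**
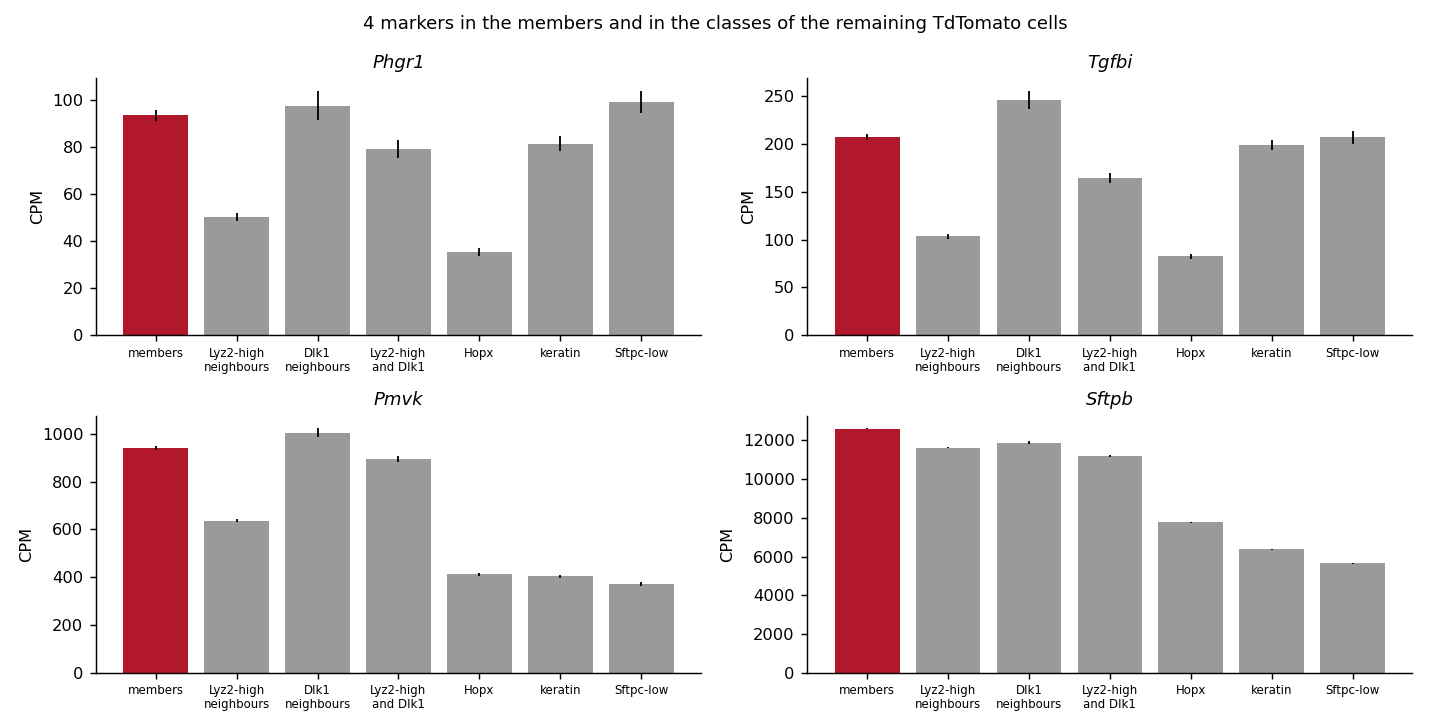
Level in CPM (y axis, from 0, with 95% Poisson intervals) of Phgr1, Tgfbi, Pmvk and Sftpb in the Lyz2-reduced cells (labelled members, red) and in the 6 classes of the remaining TdTomato cells (grey). The Dlk1 neighbours match or exceed the red bar for Phgr1, Tgfbi and Pmvk, and Sftpb is highest in the red bar.

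Detection per cell showed the same order. After each cell was thinned to 5000 UMIs, which left 2971 of the Lyz2-reduced cells, Phgr1 had a UMI in 14.1% (12.9 to 15.4) of them, against 8.14% of the Lyz2-high and 20.0% of the Dlk1 neighbours. Unthinned, these shares were 25.3%, 16.0% and 33.2%. Tgfbi was detected in 44.4% (42.6 to 46.2), 26.7% and 55.3%, and Pmvk in 75.4% (73.8 to 76.9), 64.6% and 85.6%. In 79 endothelial cells left in the matrix no Phgr1 UMI was seen after thinning, which allows a share of up to 3.80% (upper Clopper-Pearson limit 4.56%), while 10.1% had a Tgfbi UMI, 15.2% a Pmvk UMI and 36.7% an Sftpb UMI, from a median of 12521 UMIs before thinning. In 180 fibroblasts and 66 myeloid cells, Tgfbi was detected in 20.0% and 65.2% and Pmvk in 19.4% and 25.8%, so the share in cells of other types depended on the type. Sftpb was detected in all 2971 Lyz2-reduced cells. Phgr1, Tgfbi and Pmvk were found together in 8.89% (7.89 to 9.97) of the Lyz2-reduced cells, and 18.7% (17.3 to 20.1) had none of these 3.

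Surfactant genes were compared with the Lyz2-high neighbours. Of the 14 measured surfactant and processing genes outside the rule, none was 2-fold different, where 1.16% of all genes were 2-fold higher and 0.195% lower, and their median log2 ratio was -0.06 while that of all 7697 genes compared was 0.20. Sftpd, the collectin surfactant protein D, stood at 4676 CPM in the Lyz2-reduced cells and 4586 in the Lyz2-high neighbours. Abca3 stood at 454 and 472 CPM, the lamellar-body protein Lamp3 at 737 and 827, and the phosphate carrier Slc34a2 at 2734 and 2864. Sftpa1, the other collectin, was the exception among these, with 14526 CPM against 23526, a value 1.62-fold lower. The factor genes of the lineage were also near: Nkx2-1 at 393 against 296 CPM and Cebpa at 401 against 356.

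Fatty acid synthesis genes differed more from the remaining TdTomato cells than from the neighbours. Over the remaining cells, 15 of 17 fatty acid synthesis genes had a ratio above 1 and 4 reached 1.5-fold, as did 0.887% of all genes, with a median log2 ratio of 0.41 against -0.04 for all 8002 genes compared, of which 40.2% were above 1. Fasn, the fatty acid synthase, stood at 601 CPM against 379, and Scd1, the desaturase that makes oleate, at 3489 against 2186. Against the Lyz2-high neighbours, the same genes stood at 591 and 3276 CPM, ratios of 1.02 and 1.07. Of 23 sterol synthesis genes, 19 had a ratio above 1 over the remaining cells, with a median log2 ratio of 0.21, the same as over the Dlk1 neighbours and above the 0.11 over the Lyz2-high neighbours, and only 2 reached 1.5-fold, Pmvk among them. Mvk, the kinase just before Pmvk in the pathway, stood at 19.9 against 18.9 CPM, and Mvd, the enzyme just after it, at 20.3 against 15.1.

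Against all remaining TdTomato cells, 7 of 8002 genes (0.0875%) were at least 2-fold higher in the Lyz2-reduced cells and 224 (2.8%) at least 2-fold lower, with a minimum of 10 CPM in either set and the genes of the rule left out. The rule used this contrast, so the counts describe it only. Among genes of at least 20 CPM, the highest ratios belonged to Cdkn1c, an imprinted inhibitor of cyclin-dependent kinases, at 98.6 against 47.4 CPM (2.08-fold, 2.01 to 2.15), then Aif1l (1.93), Filip1 (1.88), Cdc20, an activator of the anaphase-promoting complex (1.79), Bcan (1.78), the aldehyde oxidase Aox3 (1.77), Slc24a4 (1.74), the cell-death gene Bmf (1.69) and Smim6 (1.66), followed by Pmvk. Aox3 had the highest level of these apart from Pmvk, 265 against 150 CPM.

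The genes lowest in the Lyz2-reduced cells are known from other cell types. The 10 lowest of at least 20 CPM in either set included Ctss, Chil3, Tyrobp, Ccl6 and Fcer1g, genes of macrophages and other myeloid cells. The rest of the 10 were Cxcl14, Acta2, Col3a1, Igfbp4 and Vim, which mesenchymal cells express strongly. Vim stood at 6.05 against 116 CPM and Col3a1 at 2.91 against 56.6. All 6 measured fibroblast markers and all 3 measured myeloid markers were at least 2-fold lower. When cells with 5 or more UMIs of fibroblast, endothelial, myeloid or lymphoid markers were left out of every set, which uses markers of the same cell types, the count of lower genes was 136 in place of 224 and Fcer1g, Cxcl14 and Acta2 were no longer lower, while the other 7 had ratios below 1, those of Chil3, Ccl6 and Col3a1 by less than 1.5-fold. Of the epithelial lists, 6 of 11 ATI genes and 7 of 9 transitional-state genes were at least 2-fold lower, as were 2.8% of all genes. These included the keratins Krt7 (256 against 680 CPM) and Krt19 (212 against 536), which the rule did not use but which accompany Krt8 and Krt18.

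Against the Lyz2-high neighbours, which also met the Sftpc, Hopx and keratin limits, 89 of 7697 genes (1.16%) were at least 2-fold higher and 15 (0.195%) at least 2-fold lower, and at 1.5-fold the counts were 333 (4.33%) and 78 (1.01%). The median gene was itself higher by 0.20 on the log2 scale. Relative to the median gene, 57 genes were at least 2-fold higher and 36 lower, so the surplus of higher genes was smaller on that scale. With a minimum of 50 CPM the counts were 16 and 8. The named genes below kept their direction relative to the median gene.

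Among genes of at least 20 CPM in either set, Rbm24, an RNA-binding protein of muscle splicing, had the largest ratio over the Lyz2-high neighbours (24.9 against 4.37 CPM, 5.70-fold, 5.03 to 6.47). Next were Ube2c, a ubiquitin-conjugating enzyme of mitosis (26.2 against 4.75), Mgp, the matrix Gla protein (40.5 against 9.41) and Fstl1, a secreted follistatin-like protein (25.2 against 6.12). Cdc20 followed at 25.5 against 6.70 CPM. The gene of highest level among the 10 was S100a6, a calcium-binding protein of the actin-rich and cycling cell, at 445 against 126 CPM (3.53-fold, 3.44 to 3.62). Cavin3, a coat protein of caveolae, stood at 54.9 against 15.9 CPM, Cap2, an actin regulator, at 30.1 against 9.29, and the membrane proteins Emp1 and Pmp22 at 20.7 against 6.65 and 44.5 against 14.5. S100a6 was nevertheless 4.87-fold lower than in the remaining TdTomato cells as a whole, where it reached 2169 CPM.

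The Mgp value came from a minority of the cells. It was 239 CPM in a sub-cluster of 616 Lyz2-reduced cells described below and 5.09 CPM in all others. Mgp leads that sub-cluster, so no comparison is drawn from the rest. Other fibroblast markers moved with Mgp, itself one of the 8 listed. The other 7 summed to 34.4 CPM in the Lyz2-reduced cells and 13.9 in the Lyz2-high neighbours, with the defining collagens Col1a1 at 7.01 against 1.37 CPM and Col3a1 at 2.91 against 1.04. Mgp was detected in 3.70% of the thinned Lyz2-reduced cells and in 98.9% of 180 fibroblasts. The part of fibroblast RNA in the Mgp value was not tested.

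Cell-cycle genes were the other group among the higher ones. Of 8 measured genes of the cell-cycle list, 6 were at least 2-fold higher than in the Lyz2-high neighbours, as were 1.16% of all genes, with a median log2 ratio of 2.08. Top2a, the topoisomerase of dividing cells, stood at 17.7 against 4.05 CPM, and Birc5, a survivin needed for cell division, at 18.1 against 3.92. They came from few cells: 74 of 2971 (2.49%, 1.96 to 3.12) had at least 3 UMIs of the 10 listed genes after thinning, against 0.744% (0.455 to 1.15) of the Lyz2-high and 6.36% (4.19 to 9.18) of the Dlk1 neighbours. Sox9, a factor of the distal lung progenitor, was at 18.6 CPM (17.5 to 19.7), 2.27-fold above the Lyz2-high neighbours at 8.17, and 26.4 CPM in the Dlk1 neighbours. Within the Lyz2-reduced cells Sox9 stood at 77.0 CPM in a sub-cluster of 137 cells described below and at 13.7 in all others.

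Among genes of at least 20 CPM in either set, the lowest relative to the Lyz2-high neighbours was Gdpd2, a glycerophosphodiesterase (5.39 against 21.8 CPM, 4.06-fold lower, 3.60 to 4.58). Acoxl, an acyl-CoA oxidase-like gene, followed (20.7 against 76.6, 3.70-fold lower). Next were the complement component C6 (30.7 against 76.4), Bex2 (129 against 311), Lyz1 (31.6 against 72.1) and the secreted acute-phase protein Lrg1 (375 against 831). After these came the cystatin Cst8 (34.8 against 76.3), Bex4 (15.8 against 34.3), Nrn1 (73.0 against 157) and Cth, the cystathionine lyase of cysteine synthesis (18.6 against 38.8). Lyz1 is a near-identical neighbour of Lyz2 on chromosome 10, so its reads may have been split between both genes and its value is uncertain. It also changed direction with the Lyz2 limit: with the limit at 200 its log2 ratio was 0.86. Some of these levels are means over unlike sub-clusters, described below. C6 stood at 95.3 CPM in sub-cluster 3 and 8.63 in sub-cluster 2, and Bex2 at 290 and 55.9. Lyz1 stood at 127 CPM in sub-cluster 4 and 12.1 in all others.

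Secreted and defence genes of ATII cells were lower as a list in the pooled Lyz2-reduced cells. Of 14 measured, 10 had a ratio below 1 over the Lyz2-high neighbours, 9 were at least 1.5-fold lower (1.01% of all genes) and 3 at least 2-fold lower (0.195% of all genes), namely C6, Lrg1 and the uncertain Lyz1, with a median log2 ratio of -0.67 against 0.20 for all genes, of which 15.2% were below 1. Lcn2, the iron-withholding lipocalin, stood at 1312 against 2609 CPM, Hc, which encodes complement C5, at 312 against 577, the lung chemokine Cxcl15 at 4963 against 9235 and the chitinase-like Chil1 at 1407 against 2258. Slpi, an antiprotease of secretions, went the other way at 411 against 294 CPM. These values are means over the sub-clusters described below. There the 16 listed genes outside the rule summed to 9997 CPM in sub-cluster 2 and 18927 in sub-cluster 5. Chil1 stood at 699 and 2905 CPM in these 2, and Hc at 735 in sub-cluster 3 and 237 in all others. The list was drawn up with earlier results of these data known, so its direction is not independent of them.

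**Figure D3:**
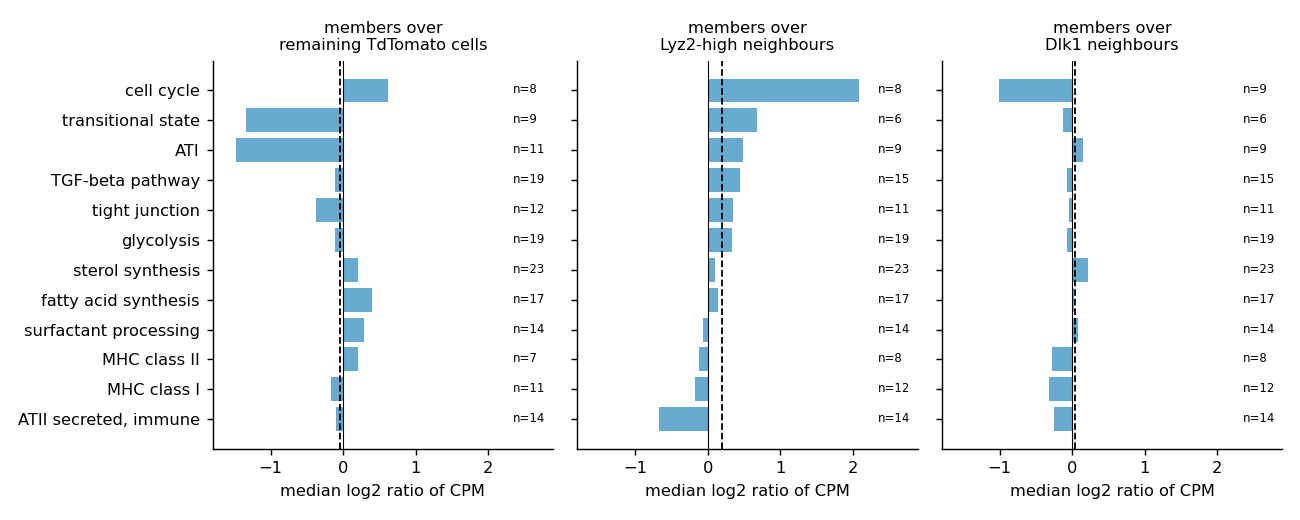
Median log2 ratio of CPM (x axis) of 12 gene lists (y axis, n measured genes at right) for the Lyz2-reduced cells (members) over each of 3 sets, with the median of all genes compared as a dashed line. Over the Lyz2-high neighbours the cell-cycle list stands at 2.08 and the secreted and immune list at -0.67, and over the Dlk1 neighbours the cell-cycle list stands at -1.01.

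The promoters of the genes that were lowest against the Lyz2-high neighbours are shown because the factor C/EBPα, which these cells express, binds a short palindrome-like motif. RefSeq windows from 250 bases before to 50 after the start site (GRCm38.p6) were searched on both strands for TTGCNNAA, the only motif searched. It was present for 3298 of 27025 genes (12.2%), for 4 of the 11 lower genes that have a window, and for 3 of the 62 higher genes that have one. The stretches of 28 bases around each match among the 10 lowest genes follow, 5′ to 3′ on the strand of the gene, with the matched bases in capitals.
Acoxl, chr2:127854424-127854451, plus strand: catgagtgcaTTGCAAAActctagctga
Lyz1, chr10:117293060-117293087, minus strand: agcccaatctTTAAGCAAtttgaaataa
Gdpd2, chrX:100729621-100729648, plus strand: tcgatggaacTTGCAGAAgtataaatag
Gdpd2, chrX:100729760-100729787, plus strand: cgctgccaagTTGCAAAAttgtgtggtc
Bex2, chrX:136068381-136068408, minus strand: gggtgtggtgTTGCTGAAccaaggagca
The matches began 194, 209, 216, 77 and 162 bases before the start site in that order, and that in Lyz1 was on the opposite strand. They are matches of letters, and binding was not measured here.

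The same genes varied with Lyz2 inside the selected cells. Cells that met every other limit were divided at 10, 50, 100 and 200 Lyz2 UMIs per 10000, bins that were set with the data in view, giving 1156, 957 and 1013 Lyz2-reduced cells and 1457 and 1265 Lyz2-high neighbours. Between the bins under 10 and from 50 to 100, 76 of 7870 genes were at least 2-fold higher at low Lyz2, and 63 of them fell at every step over the 5 bins, while 41 were at least 2-fold lower and 29 of those increased at every step. Acoxl stood at 7.78, 18.6, 36.6, 57.7 and 95.3 CPM from the lowest to the highest bin, C6 at 11.4, 32.5, 49.6, 61.6 and 91.0, and Bex2 at 63.0, 133, 195, 289 and 333. In the opposite direction, S100a6 stood at 700.0, 387, 227, 157 and 95.7 CPM, Cavin3 at 87.6, 45.8, 28.3, 20.5 and 11.3, and Tpm2, a tropomyosin of actin filaments, at 26.1, 8.66, 5.23, 3.05 and 1.42.

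These genes had been picked for a difference across the limit or for their order over the bins, so that order is no result. Cdkn1c stood at 126, 104, 64.4, 41.3 and 31.8 CPM and Phgr1 at 130, 86.8, 60.8, 63.5 and 37.3, the latter without order across the limit. Tgfbi fell over all bins, from 241 to 214, 165, 121 and 85.8 CPM, as did Pmvk, from 1040 to 987, 792, 690 and 582. Mgp did not follow Lyz2: it was 8.58 CPM in the lowest bin, 54.8 and 61.4 in the next bins up to the limit, and 15.3 and 3.57 in the neighbours. Median depth was 17648, 18556, 18489, 21361 and 25568 UMIs over the bins, so depth moved with Lyz2, and its part in these values was not tested.

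**Figure D4:**
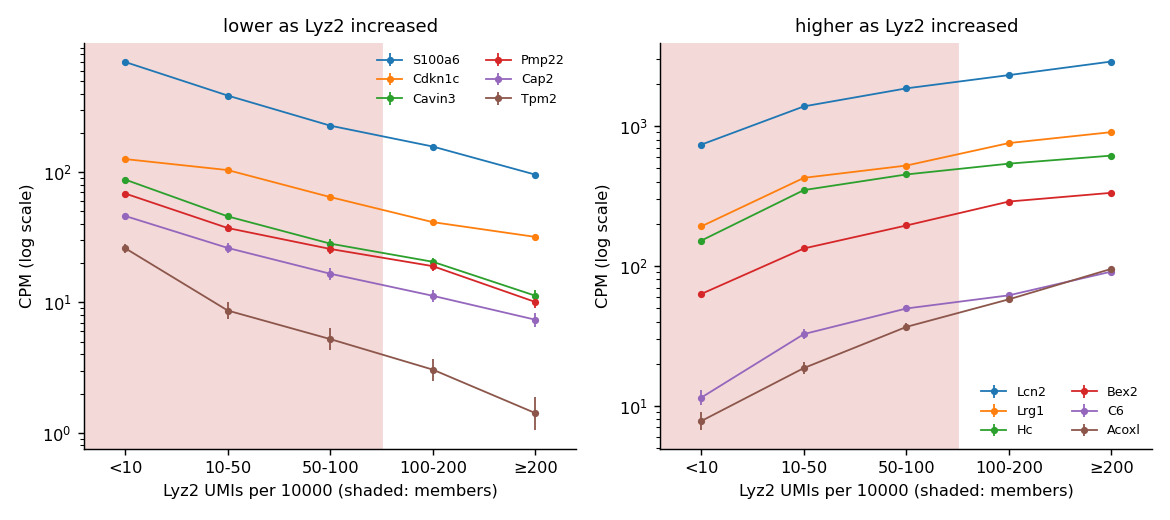
Level in CPM (y axis, log scale, 95% Poisson intervals) in 5 bins of Lyz2 UMIs per 10000 (x axis), with the Lyz2-reduced cells shaded. The 6 genes at left fall and the 6 at right increase across all bins, for example S100a6 from 700.0 to 95.7 CPM and Acoxl from 7.78 to 95.3 CPM.

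Against the Dlk1 neighbours, 29 of 7818 genes (0.371%) were at least 2-fold higher in the Lyz2-reduced cells and 50 (0.64%) at least 2-fold lower. In thinned cells the higher count was 62. Among genes of at least 20 CPM in either set, Mgp, Smim6, the lipid carrier Apoe and the Wnt acyltransferase Porcn had the 4 highest ratios. They stood at 40.5, 20.5, 31.9 and 22.6 CPM, against 3.11, 4.18, 6.80 and 5.64. Mgp was again carried by the sub-cluster of 616 cells, and Porcn by one of 137 cells at 186 CPM, with 9.05 CPM in all other Lyz2-reduced cells. Apoe stood at 6.81 and 7.49 CPM in sub-clusters 1 and 2, described below, near the Dlk1 neighbours. In sub-clusters 3 to 6 it stood at 77.7, 27.1, 107 and 86.9 CPM. The 7 fibroblast markers other than Mgp summed to 34.4 CPM against 14.2, and their part in these values was not tested. The next were the Y-linked Eif2s3y (34.0 against 8.94) and Ddx3y (3.43-fold), then Psrc1 (24.8 against 7.58) and Cdkn2a, the INK4a/ARF tumour suppressor (38.4 against 14.1). Cdkn1c was 2.48-fold higher (98.6 against 39.7 CPM).

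Among the lowest were Bex4 (15.8 against 55.9 CPM), St6galnac3 (6.75 against 23.5), the granzyme gene Gzme (12.5 against 38.1), Ube2c (26.2 against 73.4), Slc26a4 (22.7 against 62.7) and the mitotic genes Birc5 (18.1 against 44.8) and Cdk1 (16.6 against 40.9). Of 9 measured cell-cycle genes, 5 were at least 2-fold lower, as were 0.64% of all genes. Without cells that had 3 or more UMIs of cell-cycle genes, 25 genes were lower in place of 50. That exclusion uses the same genes, so no direction of mitotic genes is read from it. Fabp5, a fatty acid-binding protein, was 2.15-fold lower at 301 against 648 CPM. Meg3, the maternally expressed RNA of the Dlk1 locus, stood at 2816 against 4681 CPM, so it remained high in the cells without Dlk1, and its neighbour Mirg at 41.1 against 71.9.

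The sexes of the mice moved with this comparison. Xist, which is transcribed in female cells, had a UMI with no Y-linked UMI in 76.0% (71.6 to 80.1) of the thinned Dlk1 neighbours and in 33.6% (31.9 to 35.3) of the Lyz2-reduced cells. Female mice were 2 of the 6, and Dlk1 and the mouse of origin cannot be told apart in these values. For the Lyz2-high neighbours the share was 29.6% (27.8 to 31.3). That was nearer to the Lyz2-reduced cells, though the individual mice behind either set are unknown. GFP of the trap had a UMI in 4.31% of the thinned Lyz2-high neighbours and 12.4% of the Lyz2-reduced cells. For Stk11 the shares were 14.9% and 9.05%. Lyz2 and the mouse of origin therefore cannot be told apart in these values either.

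The GFP of the gene trap and the Stk11 transcript were both measured. GFP stood at 29.5 CPM (28.2 to 30.9) in the Lyz2-reduced cells, 11.8 in the Lyz2-high and 33.6 in the Dlk1 neighbours, and Stk11 at 20.3 CPM (19.2 to 21.4), 30.8 and 11.8. After thinning, 369 of 2971 Lyz2-reduced cells had a GFP UMI and 269 an Stk11 UMI, and 0 cells had both, which allows up to 0.101%. No GFP UMI was found in 79 endothelial cells, which allows up to 3.80% (upper Clopper-Pearson limit 4.56%). A GFP UMI was found in 1 of 180 fibroblasts (0.556%) and 2 of 66 myeloid cells (3.03%). Unthinned, 31.4% of the Lyz2-reduced cells had a GFP UMI and 24.5% an Stk11 UMI, and 1.03% of the endothelial cells had a GFP UMI.

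Variation among the Lyz2-reduced cells went beyond counting noise for many genes. Over 1247 genes with a mean of at least 0.5 UMI in thinned cells, the variance divided by the mean, which is 1 for pure counting, was highest for Scgb1a1, the club-cell secretoglobin, at 1060. That value rested on few cells, since 88.3% had no UMI and the 30 cells with the most held 82.0% of its UMIs. Malat1, a nuclear RNA, followed at 82.3, then Sftpc at 80.0, Retnla, a resistin-like secreted protein, at 45.6 with 56.2% of cells at 0, mt-Co3 at 32.9, Sftpa1 at 28.8, mt-Atp6 at 27.4, Meg3 at 24.5, mt-Co1 at 23.5 and mt-Co2 at 20.6. Sftpc is a gene of the rule, and 1 predicted gene in the ranking is left unnamed.

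Clustering was used to describe differences among the 3126 cells. The number of sub-clusters depended on the settings, from 4 to 11, so it is no result. To let the genes of interest be read beside the clusters, the genes of the rule, the 4 markers, Stk11, GFP, Xist and the Y-linked genes were held out, and Leiden clustering gave 6 sub-clusters of 923, 889, 616, 489, 137 and 72 cells. They are called by number and by their leading genes. Sub-cluster 1 was led by Mirg and Meg3, sub-cluster 2 by Ndnf, S100a6 and Cavin3, sub-cluster 3 by Mgp, C6 and Snhg11, sub-cluster 4 by Lyz1, Scgb1a1 and Cox6a2, sub-cluster 5 by Spp1, Gkn2 and Basp1, and sub-cluster 6 by Melk, Ckap2l and Nusap1, genes of mitosis. These leading genes defined the clusters and are no result.

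The markers held out differed greatly between the sub-clusters. Phgr1 stood at 128, 121, 4.19, 13.4, 164 and 196 CPM in sub-clusters 1 to 6, lowest in sub-cluster 3. Tgfbi followed with 315, 294, 38.1, 36.2, 155 and 302 CPM and Pmvk with 1517, 1141, 154, 490, 718 and 616. Sub-clusters 3 and 4, 1105 cells between them, thus lacked most of the Phgr1 and Tgfbi signal, and Phgr1, Tgfbi and Pmvk were seen together in 0.347% and 0.418% of their thinned cells, against 14.5% in sub-cluster 1 and 21.1% in sub-cluster 6. Sftpb stood between 10342 CPM in sub-cluster 3 and 19952 in sub-cluster 5. The level of Phgr1 over all Lyz2-reduced cells is therefore a mean over groups with very different levels.

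Stk11 and GFP, also held out, also differed between them. After thinning, Stk11 had a UMI in 0.886%, 2.96%, 20.7%, 19.7%, 15.8% and 4.23% of sub-clusters 1 to 6, and GFP in 20.7%, 19.1%, 1.39%, 1.67%, 0% and 15.5%. The value of 0 in sub-cluster 5 came from 133 cells, which allows a share of up to 2.26% (upper Clopper-Pearson limit 2.74%), and unthinned 2.19% had a GFP UMI. Unthinned, Stk11 ranged from 1.30% in sub-cluster 1 to 69.3% in sub-cluster 5, where the median depth was 33268 UMIs against 18844. The sub-clusters with high Stk11 and low GFP included those with the lowest Phgr1, but sub-cluster 5 combined 15.8% of cells with Stk11 with 164 CPM of Phgr1. Xist was detected in 31.7%, 39.1%, 3.12%, 72.0%, 4.51% and 43.7%. Sub-cluster 3 was almost without Xist and sub-cluster 4 mostly with it, so a sub-cluster may stem largely from 1 mouse, and state and mouse cannot be told apart there.

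**Figure D5:**
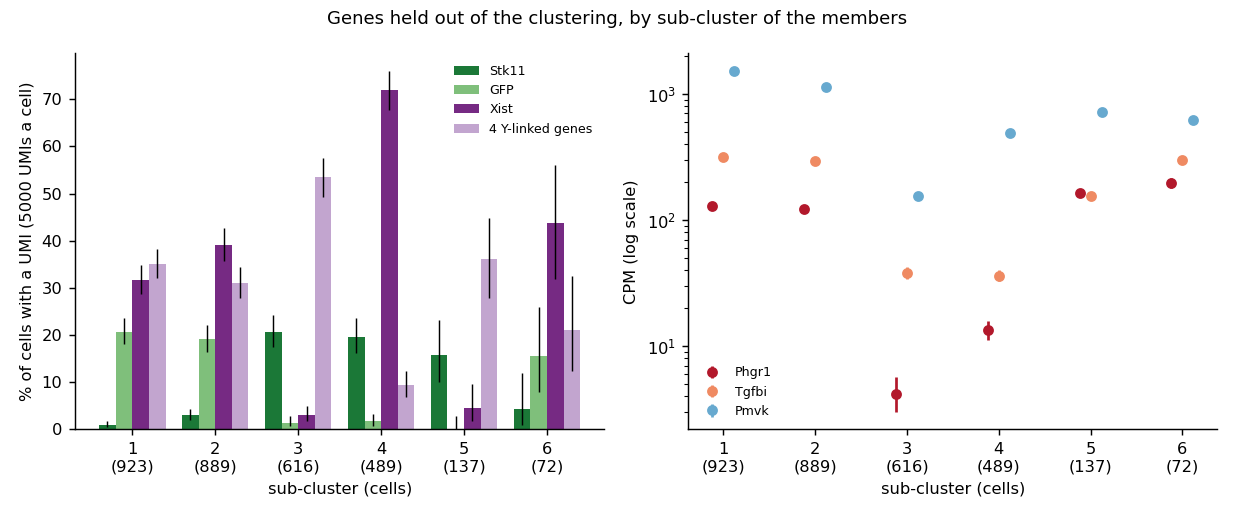
Share of cells with a UMI after thinning to 5000 UMIs (left, y axis in %, 95% Clopper-Pearson intervals) of Stk11, GFP, Xist and 4 Y-linked genes, and CPM of Phgr1, Tgfbi and Pmvk (right, log scale, 95% Poisson intervals), in the 6 sub-clusters of the Lyz2-reduced cells (x axis). Sub-clusters 3 and 4 have Stk11 in 20.7% and 19.7% of cells and the lowest Phgr1 and Tgfbi, and sub-clusters 1 and 2 have Stk11 in 0.886% and 2.96%.

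Other measures moved with the sub-clusters. Sub-cluster 3 had a median of 12652 UMIs and 7.20% mitochondrial UMIs, against 3.61 to 4.71% in the others, and its 7 fibroblast markers other than Mgp summed to 171 CPM, against 7.66 to 15.9 CPM elsewhere, with Dcn at 43.9 and Col1a1 at 34.2 CPM. The 20 immediate-early genes summed to 26502 CPM there and to 23136 CPM in sub-cluster 1, against 8187 CPM in sub-cluster 2. The part of cell damage, of fibroblast RNA and of handling in these values was not tested. Lyz2 was lowest in sub-cluster 2, with a median of 2.78 UMIs per 10000 and 563 of its 889 cells under 10, and these were 48.7% of all Lyz2-reduced cells under 10. The medians of sub-clusters 1, 3, 4, 5 and 6 were 30.6, 49.2, 40.8, 31.6 and 16.6.

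The levels of some listed genes by sub-cluster are a description only, since these genes, apart from Pmvk, were not held out of the clustering. Cdkn1c was highest in sub-cluster 5 at 231 CPM, with 118 in sub-cluster 2 and 54.7 in sub-cluster 4. Lrg1 stood at 1164 CPM in sub-cluster 5 and 122 in sub-cluster 2 and Lcn2 at 3271 and 600.1. The 27 sterol synthesis genes, Pmvk included, summed to 2531 CPM in sub-cluster 1 and 820.3 in sub-cluster 3. Pmvk alone made up 1517 and 154 CPM of these, so most of the gap lay in this 1 gene. In sub-cluster 5 the sum was 1847 CPM, with Pmvk at 718. Scd1 was highest in sub-cluster 4 at 5482 CPM and lowest in the mitotic sub-cluster 6 at 860.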

How the data were processed

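Cells sorted from the lungs of 6 mice were profiled by 10x 3′ single-cell RNA-seq, and the deposited matrix of raw UMI counts per gene and cell was used as the authors made it with Cell Ranger 3.0.2 on mm10, per the file header and the submitters' processing notes. The annotation release is not given in the sources used here. UMI counts were summed over the cells of a set and divided by the summed total to give CPM, and the ratio of CPM was taken for genes with at least 10 CPM in either set. Shares of cells with a UMI were taken after thinning cells to 5000 UMIs. The matrix holds no map from cells to mice, so it is 1 sample and no p-value is given. Named genes were the 10 of highest and 10 of lowest ratio over the remaining cells and over the Lyz2-high neighbours, the 8 over the Dlk1 neighbours, all of at least 20 CPM, the 10 of highest variance over mean, and genes of the lists a paragraph describes. The members, lists and markers were chosen with earlier results of these data known. Sub-clusters came from Leiden clustering in scanpy 1.11.5 (2000 variable genes, 30 components, 15 neighbours, resolution 0.5, 18 genes held out), chosen with the data in view. Possible doublets were kept, and Scrublet served as a description and an alternative. Endothelial, fibroblast and myeloid reference cells were taken from the same matrix by at least 5, 20 and 10 UMIs of their markers. Gene coordinates are from GENCODE M21 (GRCm38). The calculations were tested on simulated data with known ratios and used Python 3.11.15, numpy 2.4.6 and scipy 1.17.1. Alternatives were other limits, totals, CPM minimums and folds, and sets without doublet-like, other-type or cycling cells. A further allele of the mice and a few genes that these rules would name are not reported here.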

Additional observations from a re-analysis of the deposited data

Results flagged for a closer look

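Some cells outside the quality limits met the selection limits of the Lyz2-reduced cells. Of 1721 cells with over 20% mitochondrial UMIs that had at least 500 genes, 299 (17.4%) met every other limit. Their median depth was 4348 UMIs, of which the median mitochondrial share was 26.5%. In them Phgr1 stood at 6.07 CPM, Tgfbi at 65.5, Pmvk at 261 and Sftpb at 10986, against 93.5, 207, 942 and 12614 CPM in the Lyz2-reduced cells. Of 415 cells with under 500 genes and no more than 20% mitochondrial UMIs, 87 met every other limit at a median depth of 605 UMIs and had Phgr1 at 112, Tgfbi at 168, Pmvk at 1099 and Sftpb at 14488 CPM. These cells enter no comparison above.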

How the results depend on the processing

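The share of Lyz2-reduced cells among TdTomato cells, 25.9%, was 17.5% with Lyz2 under 50, 37.9% with Lyz2 under 200, 24.3% with Dlk1 at 0, 28.4% with Sftpc at least 250, 18.4% with Sftpc at least 1000, 24.4% with mitochondrial UMIs at most 10% and 26.8% among cells with few UMIs of other cell types. Over the remaining TdTomato cells, the 7 higher genes became 2 (Sftpc at least 1000), 1 (50 CPM minimum), 20 (1 CPM minimum) and 71 (1.5-fold), and the 224 lower ones 342 (Lyz2 under 200), 136 (few UMIs of other cell types), 62 (50 CPM), 1072 (1 CPM) and 394 (1.5-fold). Over the Lyz2-high neighbours, the 89 higher genes became 47 (Sftpc at least 1000), 57 (relative to the median gene), 16 (50 CPM), 429 (1 CPM) and 333 (1.5-fold), and the 15 lower ones 31 (Lyz2 under 50), 3 (Lyz2 under 200), 8 (Sftpc at least 1000), 23 (totals without genes of the rule and mitochondrial genes), 36 (relative to the median gene), 8 (50 CPM), 59 (1 CPM) and 78 (1.5-fold). Over the Dlk1 neighbours, the 29 higher genes became 62 (thinned cells), 5 (50 CPM), 202 (1 CPM) and 105 (1.5-fold), and the 50 lower ones 21 (Lyz2 under 200), 27 (Sftpc at least 1000), 31 (few UMIs of other cell types), 25 (without cycling cells), 9 (50 CPM), 204 (1 CPM) and 123 (1.5-fold). Of 114 such counts, 81 were within 1.5 times the reported one.

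In thinned cells Ctss was at 0 in the Lyz2-reduced cells, so no ratio is given. Of the named genes' values, 694 stayed within the counting interval and 371 moved beyond it. Of all 1071, 10 had the other sign, 6 of them for genes that differed by at least 2-fold, given next. The log2 ratio of Lyz1 over the Lyz2-high neighbours was 0.86 with Lyz2 under 200. Without cells carrying UMIs of other cell types, the log2 ratios over the remaining cells were 0.20 for Fcer1g, 0.63 for Cxcl14 and 0.19 for Acta2, and without cycling cells those over the Dlk1 neighbours were 1.51 for Ube2c and 0.10 for Birc5, genes of the kind that defined the exclusion. Of list medians, 92 of 1514 had the other sign, in 36 of 95 list results, and 173 moved by over 0.1. The cell-cycle median over the remaining cells, 0.63, was -0.36 with Sftpc at least 1000, and that of gut and stomach genes, -0.62, was 0.11 with Lyz2 under 50 and 0.19 without cycling cells. Relative to the median gene, those of sterol and fatty acid synthesis over the Lyz2-high neighbours were -0.09 and -0.06. These exclusions of cells were chosen after seeing the data. The causes of the other changes were not tested. Clustering at 5 further settings gave 4 to 11 sub-clusters, with adjusted Rand indices of 0.437 to 0.785 against the reported one.

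No paired analysis was possible because the matrix joins all mice without naming the mouse of a cell, and for the same reason no mouse was left out. Counting error bounds the precision of each value, and the spread between mice is unknown.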

Other observations

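Other gene lists placed the Lyz2-reduced cells beside the Lyz2-high neighbours as follows, where the median of all genes compared was 0.20 on the log2 scale, 84.8% of them had a ratio above 1 and 1.16% were at least 2-fold higher. A count above 1 therefore says little about a list. All 15 measured genes of the TGF-beta pathway (ligands, receptors, SMADs, binding proteins and targets) had a ratio above 1 and 2 were at least 2-fold higher, 1 of them Tgfbi, which had been picked on these cells, with a median log2 ratio of 0.44. All 9 measured ATI genes (median 0.48), all 6 transitional-state genes (0.69) and all 11 tight junction genes (0.35) were also above 1, as were 17 of 19 genes of glycolysis and hypoxia (0.34) and 11 of 12 genes of the LKB1 axis (0.27, near the median gene). Of the LKB1 axis genes, 2 were at least 1.5-fold higher and 1 at least 1.5-fold lower, against 4.33% and 1.01% of all genes. Stk11 itself, given above, was lower. Antigen presentation genes lay below 1, with 7 of 8 MHC class II genes (-0.13) and 11 of 12 MHC class I genes (-0.18). Ribosomal protein genes (-0.02, 80 genes), nuclear genes of oxidative phosphorylation (0.03, 30 genes) and mitochondrially encoded genes (-0.01, 13 genes) lay near 0, all below the median gene, and the last 2 lists changed sign under some settings.

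Over the Dlk1 neighbours, where that median was 0.03 and 42.7% of genes were below 1, 11 of 12 MHC class I genes (median -0.32) and 7 of 8 MHC class II genes (-0.28) were below 1, and 21 of 23 sterol synthesis genes were above 1 (0.21), none of them 2-fold. Over the remaining TdTomato cells, where it was -0.04 and 59.8% were below 1, all 12 tight junction genes were below 1 (-0.37) and all 13 mitochondrially encoded genes above 1 (0.26).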
